A study of Rattus norvegicus with 9 samples.

Results

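The genes described here are 6 markers of resident macrophages and of T cells in the rat heart: C1qa, Lyz2, Csf1r, Ctss, Cd4 and Ccl5. They were taken by name from a panel of immune markers that was chosen with earlier results of these data known. All 6 were found among the 25002 annotated loci of at least 200 nt that the files allow to be compared. All 6 were tested. RNA sequencing covered 9 libraries of Sprague-Dawley rat heart, 3 in each of 3 groups. The fetal libraries are ventricle at embryonic day 18, numbered by litter, with RNA isolated with Trizol and no surgery. The TAC libraries are left ventricle of adult rats that had transverse aortic constriction, in which the aorta is narrowed so that the heart pumps against high pressure. The sham libraries are adult left ventricle after the same operation without constriction. Adult RNA was isolated with a Qiagen column kit. Between fetal and adult groups, age therefore cannot be told apart from surgery, from the isolation method or from the part of the heart sampled. Nothing in the labels says whether each adult library is a separate animal or how long after surgery the hearts were taken, so p-values measure the spread between these libraries, which may be technical.

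Macrophages settle in the heart before birth and stay there as resident cells, joined later by monocytes from the blood. They take up dead cells and debris, coat targets with complement, digest them in lysosomes and present the fragments to T cells on class II molecules. C1qa encodes a chain of the complement component C1q, and Lyz2 encodes lysozyme, which breaks bacterial cell walls. Csf1r encodes the receptor on which macrophage survival depends, and Ctss encodes cathepsin S, a lysosomal protease that trims the invariant chain so that class II molecules can be loaded with peptide. Cd4 encodes the co-receptor of helper T cells, and in the rat macrophages carry it too. Ccl5 encodes a chemokine made by activated T cells and natural killer (NK) cells, among others, that attracts leukocytes through receptors such as Ccr1.

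All 6 markers were far lower in the fetal ventricle than in either adult group, and none was called between TAC and sham. Values are FPKM (sequenced fragments scaled to 1 kilobase of transcript and to 1e6 mapped) after a rescaling that makes libraries comparable, and are therefore levels per length. Against sham, the fetal mean of Csf1r was 20.6%, of Ctss 14.6%, of C1qa 14.2%, of Lyz2 11.8%, of Cd4 5.58% and of Ccl5 1.08% of the sham mean. In this bulk tissue, fewer cells of a type and less RNA per cell cannot be told apart.

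Promoter sequences were searched for short motif letters next to the starts of the genes. No link between these letters and the fetal levels was tested. RefSeq (build GRCr8) gives the 250 bases before the annotated start for C1qa, Lyz2, Csf1r and Ctss. They lie at chr5:154419934-154420183 (minus strand), chr7:54798012-54798261 (minus strand), chr18:56834129-56834378 (plus strand) and chr2:185775146-185775395 (plus strand), in the order just given. Each is printed 5′ to 3′ on the strand of the gene, and capitals mark the core letters bound by PU.1, the factor that directs the making of macrophages: GAGGAA, or TTCCTC where the letters lie on the other strand.
C1qa: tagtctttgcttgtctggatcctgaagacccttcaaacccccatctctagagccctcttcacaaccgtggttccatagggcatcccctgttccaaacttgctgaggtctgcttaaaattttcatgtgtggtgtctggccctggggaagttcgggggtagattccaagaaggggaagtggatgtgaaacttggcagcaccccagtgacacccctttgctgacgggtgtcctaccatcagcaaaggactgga
Lyz2: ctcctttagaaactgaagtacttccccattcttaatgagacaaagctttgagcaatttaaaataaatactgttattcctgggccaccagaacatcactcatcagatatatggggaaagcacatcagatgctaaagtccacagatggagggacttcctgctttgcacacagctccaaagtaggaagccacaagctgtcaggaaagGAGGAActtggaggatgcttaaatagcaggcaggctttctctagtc
Csf1r: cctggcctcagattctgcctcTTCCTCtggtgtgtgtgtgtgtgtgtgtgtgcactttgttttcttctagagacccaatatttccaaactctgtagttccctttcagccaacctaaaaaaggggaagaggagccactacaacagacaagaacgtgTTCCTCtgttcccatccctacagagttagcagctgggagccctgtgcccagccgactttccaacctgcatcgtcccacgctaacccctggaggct
Ctss: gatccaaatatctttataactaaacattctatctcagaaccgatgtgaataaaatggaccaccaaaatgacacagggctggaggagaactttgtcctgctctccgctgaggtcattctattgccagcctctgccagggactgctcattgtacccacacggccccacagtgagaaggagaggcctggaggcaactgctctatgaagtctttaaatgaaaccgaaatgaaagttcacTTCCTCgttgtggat

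The PU.1 core was found in 3 of these 4 windows, and 23.3% of the 27457 promoters of the same length hold it on either strand. Lyz2 has it once, at -46 to -41 from the start. Csf1r has it at -229 to -224 and at -95 to -90, and Ctss at -15 to -10, each on the other strand. Ctss also holds the letters AANNGAAA, the core read by interferon regulatory factors, at 3 overlapping places between -40 and -22, and 23.0% of promoters hold them. The C/EBP letters TTNNGNAA were found at 2 places in Lyz2 and at 1 place in Csf1r, against 36.9% of all promoters with a match. No match of 1 motif overlaps a match of another. The C1qa window holds none of these letters, nor TGANTCA, the AP-1 letters that 6.4% of promoters hold, and no match says only that the letters are not in this window. The matches describe letters and were not tested for binding.

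C1qa (chromosome 5, 155662334 to 155665247 in build rn4, as for the other positions of whole genes below) had 10.6, 11.0 and 7.32 rescaled FPKM in the 3 fetal libraries, 75.1, 62.1 and 79.9 in TAC and 79.5, 58.5 and 64.9 in sham. Every fetal library was below every adult one, while TAC and sham overlapped. C1qa averaged 9.63 ± 2.01 in fetal, 72.3 ± 9.21 in TAC and 67.6 ± 10.7 in sham (SD, n = 3 each). The log2 change was -2.70 for fetal against sham (SE 0.19) and -2.80 for fetal against TAC, with adjusted p = 1.71e-05 and 1.51e-05 in limma. Its value rested on between 132 and 216 implied fragments in fetal, 302 and 740 in TAC and 454 and 1092 in sham libraries.

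Lyz2 (chromosome 7, 56607709 to 56613053) was the most abundant marker in each of the 9 libraries. It had 17.5, 21.6 and 28.8 rescaled FPKM in fetal, 248, 137 and 199.6 in TAC and 259, 174 and 144 in sham libraries. The fetal libraries lay below all adult ones, and the adult values spread widely, with the highest value of TAC and of sham both in replicate 1. Lyz2 averaged 22.65 ± 5.73 in fetal, 194.9 ± 55.4 in TAC and 192.3 ± 60.1 in sham (SD, n = 3 each). The log2 change of fetal against sham was -3.01 (SE 0.29, adjusted p = 8.81e-05 in limma), and of fetal against TAC -3.04 (adjusted p = 8.40e-05). Lyz2 has close lysozyme copies in the rat genome, and how reads shared with them were counted was not tested.

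Csf1r (chromosome 18, 57080078 to 57107295) had 8.40, 5.81 and 5.87 rescaled FPKM in fetal, 34.98, 26.4 and 41.1 in TAC and 42.1, 29.7 and 25.5 in sham libraries. The fetal libraries were again apart from the adult ones, with the smallest gap of the 6 genes on the log2 scale. The log2 change was -2.11 for fetal against sham (SE 0.25, adjusted p = 2.36e-04 in limma) and -2.19 for fetal against TAC (adjusted p = 1.97e-04). Its means were 6.69 ± 1.48 in fetal, 34.1 ± 7.40 in TAC and 32.4 ± 8.64 in sham (SD, n = 3 each).

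Ctss (chromosome 2, 190425296 to 190466567) had 6.94, 6.49 and 5.08 rescaled FPKM in fetal, 41.3, 39.9 and 33.9 in TAC and 51.7, 36.02 and 39.4 in sham libraries. Its fetal values were close to those of Csf1r. The SD of Ctss was 15.8% of the mean in fetal, 10.3% in TAC and 19.4% in sham. Ctss averaged 6.17 ± 0.97 in fetal, 38.4 ± 3.95 in TAC and 42.4 ± 8.23 in sham (SD, n = 3 each). The log2 change was -2.59 for fetal against sham (SE 0.18, adjusted p = 1.71e-05 in limma) and -2.46 for fetal against TAC (adjusted p = 2.23e-05).

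Cd4 (chromosome 4, 160988512 to 161014168) had 1.21, 1.45 and 1.88 rescaled FPKM in fetal, 34.4, 23.3 and 25.3 in TAC and 35.8, 22.1 and 23.6 in sham libraries. The fetal values were low but above 0 in each library. Cd4 averaged 1.51 ± 0.34 in fetal, 27.7 ± 5.88 in TAC and 27.1 ± 7.50 in sham (SD, n = 3 each). The log2 change was -3.46 for fetal against sham (SE 0.24, adjusted p = 1.49e-05 in limma) and -3.50 for fetal against TAC (adjusted p = 1.49e-05). With 1 added to each value before the logarithm, the change of a gene this low in fetal hearts is understated.

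Ccl5 (chromosome 10, 71605791 to 71610348) was the marker closest to the floor. It was listed at 0 in fetal replicate 1 and had 0.935 and 0.113 rescaled FPKM in replicates 2 and 3, from 0, 5 and 1 implied fragments. TAC libraries had 42.7, 52.5 and 30.3 and sham libraries 16, 48.5 and 32.7 rescaled FPKM. Fetal and adult values were far apart, and among the adult libraries sham replicate 1 was the lowest. Ccl5 averaged 0.350 ± 0.510 in fetal, 41.8 ± 11.1 in TAC and 32.4 ± 16.2 in sham (SD, n = 3 each). The log2 change was -4.56 for fetal against sham (SE 0.42, adjusted p = 6.79e-05 in limma) and -5.02 for fetal against TAC (adjusted p = 4.15e-05). Assembled features inside Ccl5 that were not counted with it had 10 implied fragments over 90 nt in sham replicate 1, beside 70 that were counted, and 32 over 461 nt in sham replicate 3, beside 163.

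**Figure D1:**
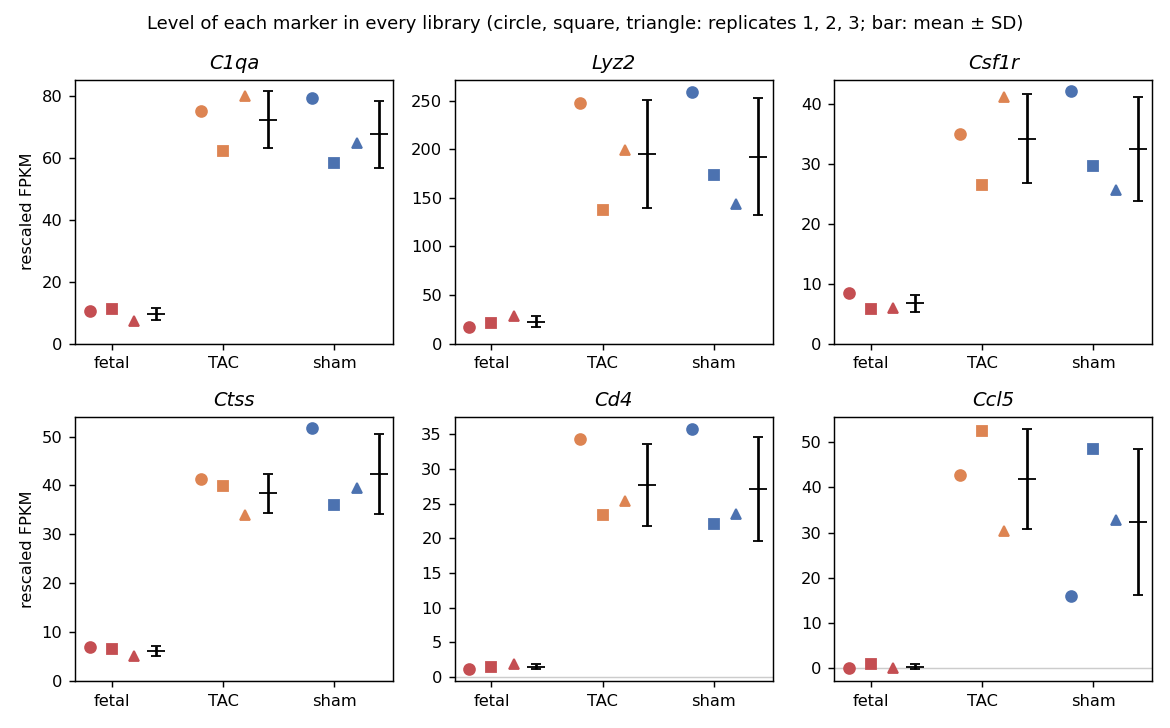
Rescaled FPKM of each marker (vertical axis, starting at or just below 0) in the fetal, TAC and sham libraries. Circles, squares and triangles are replicates 1, 2 and 3, and bars are the mean ± SD of 3 libraries. The fetal libraries sit below every adult library for all 6 genes, from 0 for Ccl5 to 28.8 for Lyz2, and TAC and sham overlap throughout.

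For fetal against sham, 6 of 6 markers were lower at an adjusted p below 0.05, where 22.9% of the 14298 loci tested were lower in fetal. The markers were chosen with earlier results of these data known, so this and the following counts are descriptions and no independent support. All 6 also had no overlap between the 3 fetal and the 3 sham libraries, as had 28.5% of loci in that direction. In either direction 45.1% of loci were called, so the sizes were also set against all loci. Of all loci tested, 0.462% had a log2 change below that of Ccl5, 1.43% below Cd4, 2.07% below Lyz2, 2.82% below C1qa, 3.16% below Ctss and 5.14% below Csf1r. The median log2 change of the 6 markers was -2.86, beside 0.05 over all loci tested. Tested loci had to reach 1 in 3 or more libraries. Ccl5 passed this filter only through adult libraries, which favoured a fall in fetal.

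For fetal against TAC, 6 of 6 markers were lower as well, where 22.6% of loci were lower in fetal at the same threshold. No fetal library overlapped a TAC library for any marker, as for 27.4% of loci. This comparison shares its fetal libraries with the one against sham, so the 2 results are not independent. The summed level of the 6 markers ran from 44.6 to 49.1 rescaled FPKM in fetal, from 342 to 476 in TAC and from 330 to 484 in sham libraries.

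For TAC against sham, 0 of 6 markers were called by limma at an adjusted p below 0.05, and 0 of 6 had an unadjusted p below 0.05 in the same fit. In that comparison 0.014% of loci passed, which is 2 loci, 0.00699% in each direction, and 621 had an unadjusted p below 0.05. All 6 markers overlapped between the groups, where 4.56% of loci were lower in TAC without overlap and 4.26% higher. The log2 change was 0.10 for C1qa (95% interval -0.34 to 0.54), 0.02 for Lyz2 (-0.65 to 0.69) and 0.08 for Csf1r (-0.48 to 0.64). It was -0.13 for Ctss (95% interval -0.55 to 0.29), 0.04 for Cd4 (-0.51 to 0.59) and 0.46 for Ccl5 (-0.51 to 1.43). Each interval includes 0, and that of Ccl5, whose TAC mean was 129% of its sham mean, is the widest. With 3 libraries a group these data do not show the markers to be equal in TAC and sham. The sign of the difference turned for Lyz2, Csf1r, Ctss and Cd4 when a library was left out, with values from -0.23 to 0.28.

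**Figure D2:**
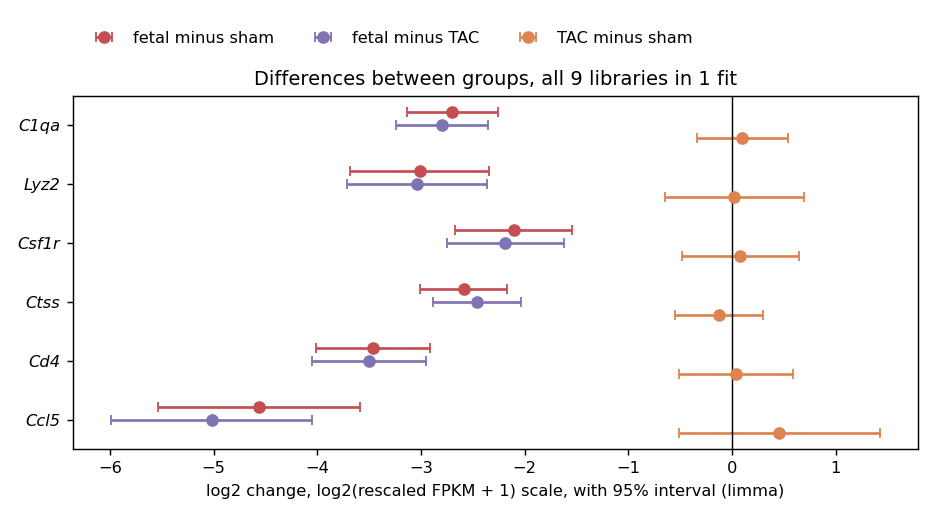
Log2 change of each marker on the log2(rescaled FPKM + 1) scale (horizontal axis) with its 95% interval from limma, for fetal minus sham, fetal minus TAC and TAC minus sham. The intervals of both fetal comparisons lie wholly below 0, with estimates from -2.11 for Csf1r to -5.02 for Ccl5, and all 6 intervals of TAC minus sham include 0.

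The markers were also ordered by level per length within each library. In all 3 fetal libraries it was Lyz2, then C1qa, then Csf1r and Ctss in either order, then Cd4 and last Ccl5. In adult libraries Lyz2 and C1qa also came first and second in all 6, but Ccl5 took any place from the third to the sixth and Cd4 was the fifth or the sixth. Sham replicate 1 had the same order as fetal replicate 2, with Ccl5 last. In sham, Ctss was above Cd4 within every library. Across libraries the lowest Ctss value, 36.02, was just above the highest Cd4 value, 35.8 rescaled FPKM in sham replicate 1. The confidence bounds of that Cd4 value, 33.6 to 37.9, include 36.02, so this gap is not resolved. Csf1r overlapped both Ctss and Cd4, and Ccl5 overlapped all 3. Placed among all loci tested within a library, Lyz2 stood at or above 53.6% to 67.1% of loci in fetal, 91.7% to 95.7% in TAC and 92.6% to 96.1% in sham. Cd4 stood at 11.2% to 13.9% in fetal, 61.0% to 70.6% in TAC and 60.1% to 71.5% in sham.

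Ratios to C1qa compare the markers within each library. The ratio of Cd4 to C1qa ran from 0.114 to 0.257 in fetal, 0.317 to 0.458 in TAC and 0.363 to 0.450 in sham libraries, with no overlap between fetal and adult. The ratio of Csf1r to C1qa ran from 0.527 to 0.801 in fetal, 0.425 to 0.514 in TAC and 0.393 to 0.530 in sham, so that the lowest fetal library lay just under the highest sham one. The ratio of Ctss to C1qa overlapped between the groups, from 0.590 to 0.693 in fetal, 0.424 to 0.643 in TAC and 0.607 to 0.650 in sham. On the log2(value + 1) scale, the fetal minus sham difference relative to C1qa was -1.86 for Ccl5, -0.76 for Cd4, 0.59 for Csf1r, 0.11 for Ctss and -0.32 for Lyz2. The exact two-sided permutation p was 0.1 for Ccl5, Cd4 and Csf1r, the smallest that 3 against 3 libraries can give, 0.2 for Ctss and 0.5 for Lyz2. For Csf1r, whose plain ratios overlapped, the separation behind this p appears only with 1 added to each value. Adjusted over these 5 relations the lowest was 0.167. No adjusted p below 0.05 could be reached with 3 libraries a group, so this test does not say whether the markers changed equally or unequally.

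Over all loci, the libraries numbered 1 in the 3 groups deviated from their group means together and apart from the rest. Their shortest assembled feature was 43 nt, against 63 nt in the other libraries, and no label names a batch. Within groups, sham replicate 1 was the highest sham library for C1qa, Lyz2, Csf1r, Ctss and Cd4, by 0.24 to 0.47 above the group mean on the log2 scale. For Ccl5 it was the lowest, by -0.84. Between same-numbered libraries, the fetal minus sham difference of Lyz2 was -3.81 for number 1, -2.95 for number 2 and -2.28 for number 3. That of Cd4 was -4.06, -3.23 and -3.09 in the same order, and that of Ccl5 -4.09, -4.68 and -4.92. All 6 markers were lower in fetal for each of the 3 numbers. For TAC against sham, Ccl5 differed by 1.36 for number 1, 0.11 for number 2 and -0.11 for number 3, and the mean of numbers 2 and 3 was 0.0034. Without sham replicate 1, or within replicates 2 and 3 alone, the markers' calls were as with all libraries.

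Over the 9 libraries the 15 pairs of markers had Pearson correlations of log2 values between 0.91 and 0.99, which the fetal and adult groups set. With group means removed, Lyz2 and Cd4 still had r = 0.90 (n = 9), C1qa and Csf1r 0.68, and C1qa and Ctss 0.66. Ccl5 had negative values with each of the other 5, from -0.38 with Ctss to -0.77 with Csf1r. These are descriptions: the libraries share their groups and scaling, and those numbered 1 deviate together.

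**Figure D3:**
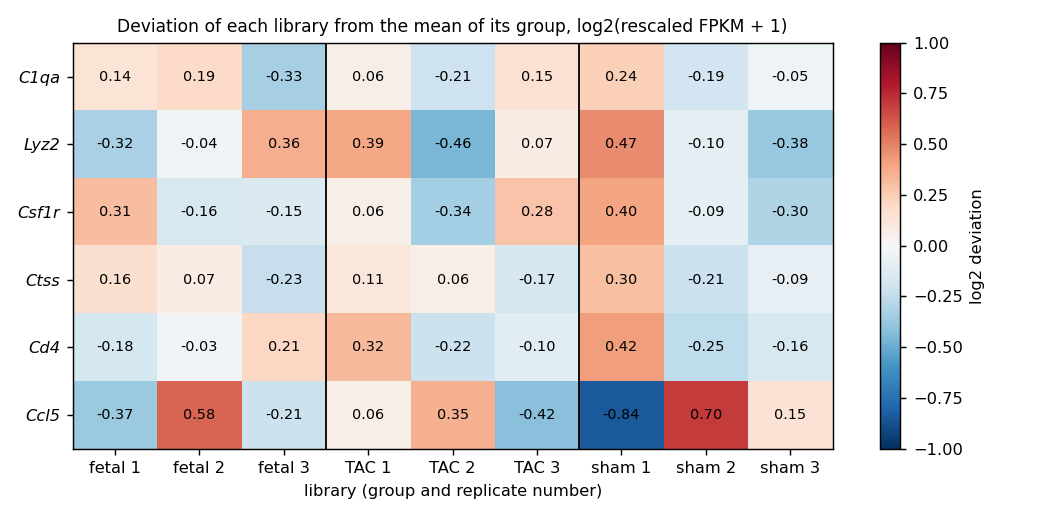
Deviation of each library (columns, grouped as fetal, TAC and sham with their replicate numbers) from its group mean on the log2(rescaled FPKM + 1) scale, for each marker (rows). Red is above and blue below the group mean. Sham replicate 1 is above its group mean for 5 markers and at -0.84 for Ccl5.

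The values of Cd4, Ctss, Csf1r and Ccl5 rested in part on transcripts that the authors' assembly added to the annotation. For Cd4 the annotated transcript of 1749 nt was listed at 0 in all 3 TAC libraries and in sham replicates 1 and 2, and assembled transcripts of 3000 to 3061 nt held the whole value there. In sham replicate 3 and fetal replicates 1 and 2 the annotated transcript held all of it, and in fetal replicate 3 the assembled part was 58.4%. For Ctss the assembled part, up to 1512 nt against 1000 nt annotated, was none of the value in fetal replicate 1, all of it in fetal replicate 2 and 35.5% in fetal replicate 3, at least 68.9% in TAC and at least 83.7% in sham. For Csf1r it was at most 18.4% in fetal, 36.5% in TAC and 35.3% in sham. For Ccl5 it was 34.1% in TAC replicate 2, the highest Ccl5 value, and none in the other libraries with a value above 0. The levels above sum both kinds. Counted on annotated transcripts only, Cd4 and Ctss were no longer called for fetal against sham, with log2 changes of -0.45 (adjusted p = 0.845 in limma) and -0.21 (adjusted p = 0.948).

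**Figure D4:**
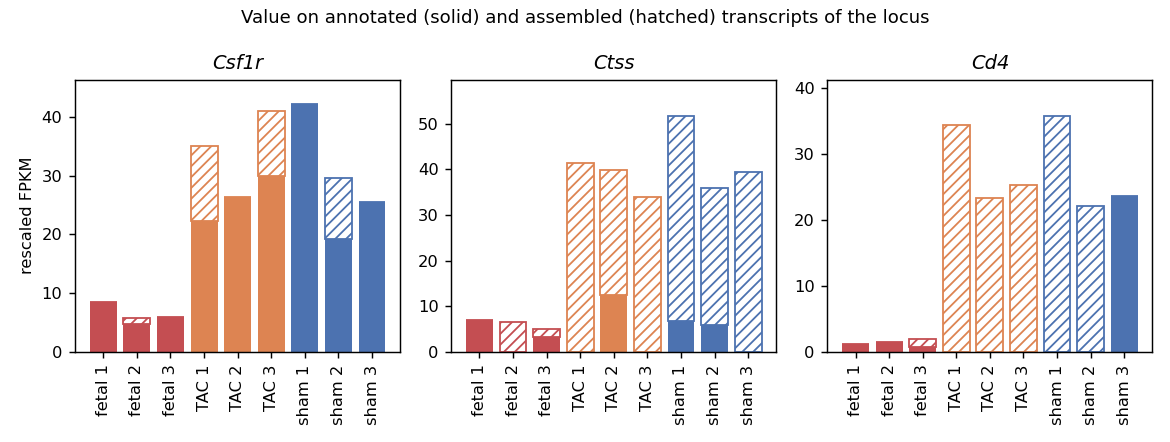
Rescaled FPKM (vertical axis, from 0) of Csf1r, Ctss and Cd4 in each library, divided into annotated (solid) and assembled (hatched) transcripts of the locus. Adult Cd4 is assembled in 5 of 6 libraries and annotated in sham replicate 3, at similar totals between 22.1 and 35.8.

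The wider macrophage list moved in the same direction. Of 45 listed genes 29 were tested, and 21 of these fell in fetal against sham with none higher, at a median log2 change of -1.64. Among all loci tested, 22.9% were lower and 22.2% higher. Folr2, a folate receptor of resident macrophages, had 1.04, 1.76 and 1.39 rescaled FPKM in fetal and 22.2, 12.0 and 18.4 in sham libraries (log2 change -2.92, adjusted p = 7.16e-05 in limma). The partners of C1qa in the C1q molecule, named after their values were seen, fell too: C1qb changed by -1.64 (adjusted p = 0.00611) and C1qc by -1.73 (adjusted p = 0.0161). Lyve1 and Pf4, also singled out after their values were seen, were not called. Lyve1, a hyaluronan receptor of resident macrophages and lymphatic vessels, had 18.5, 15.2 and 17.1 in fetal and 20.6, 12.98 and 11.9 in sham (log2 change 0.19, adjusted p = 0.601). Pf4, a chemokine of platelets and of some macrophages, had 12.6, 11.5 and 15.2 in fetal and 14.4, 17.3 and 10.2 in sham (log2 change -0.07, adjusted p = 0.903). Ms4a7 was listed at 0 in all fetal libraries, and Vsig4 in all TAC and sham libraries. The list summed to between 147 and 159 in fetal, 615 and 865 in TAC and 545 and 875 in sham libraries, and with 4 of the 6 markers on it, it is no independent support.

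The label of Cd4 and Ccl5 as T cell markers was set beside the T and NK cell list. Of 40 listed genes 28 were tested, 22 fell in fetal against sham and none rose, at a median of -1.47. Cd4 and Ccl5 themselves are among the 22, and 22.9% of all loci tested were lower. Listed genes near 0 in fetal, such as Cd3e and Cd2, passed the filter only through adult libraries. For these a fall was favoured in advance, so the count is no test of the label. Cd3d, Cd3e, Cd8b, Gzma, Gzmb, Klrd1, Foxp3 and Ctla4 were listed at 0 in all 3 fetal libraries. Adult levels of the CD3 chains of the T cell receptor were themselves low. Cd3e had 1.71, 0.26 and 1.99 rescaled FPKM in TAC and 2.79, 0.54 and 2.37 in sham libraries, where Cd4 had between 22.1 and 35.8. Cd8a was not called, with 3.42, 2.83 and 3.55 in fetal and 1.18, 6.85 and 2.43 in sham (log2 change 0.13, adjusted p = 0.839 in limma). Nkg7, a granule protein of NK and cytotoxic T cells, had 0.33, 0.29 and 0.42 in fetal and 13.3, 19.5 and 17.5 in sham (log2 change -3.71, adjusted p = 1.34e-04). T cells and macrophages as the source of the adult Cd4 signal cannot be told apart in bulk tissue, and the word T cell is used here for the list only.

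Genes that work with the markers were read from lists by role. The counts include the marker each list belongs to: C1qa in complement, Ctss in class II presentation and in cathepsins, Csf1r in its own list, Ccl5 in chemokines and Lyz2 in lysozymes. They stand beside 22.9% of all loci tested that were lower in fetal against sham. Listed genes near 0 in fetal entered the tests only through adult libraries, which favoured a fall. In the complement list 10 of 12 tested genes fell in fetal against sham, at a median of -1.76. C1r, the protease that C1q activates, had 5.92, 2.72 and 3.60 rescaled FPKM in fetal and 153, 120 and 119 in sham (log2 change -4.73, adjusted p = 4.16e-06 in limma). C4b, a target of the C1 proteases, changed by -3.96 (adjusted p = 1.16e-04), and Serping1, the C1 inhibitor, by -3.59 (adjusted p = 1.73e-04). In class II antigen presentation, 8 of 10 tested genes were lower, at a median of -2.24. RT1-Da had 0.706, 0.564 and 0.510 in fetal, 88.9, 72.8 and 68.4 in TAC and 134, 101 and 104 in sham, a log2 change of -6.15 for fetal against sham (adjusted p = 3.14e-07). RT1-Ba changed by -5.54 and RT1-Db1 by -5.36, and since class II genes have close copies, how their shared reads were divided was not tested.

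Among cathepsins and their inhibitors, 9 of 11 tested genes were lower in fetal against sham, at a median of -1.42. Cst3, a secreted inhibitor of cathepsins, changed by -2.59 (adjusted p = 3.63e-04 in limma) and Cst7, another cystatin, by -2.01 (adjusted p = 0.013). In the list around Csf1r, 6 of 12 tested genes were lower and 3 higher. Over all loci tested, 22.9% were lower and 22.2% higher, so the share that was higher lies near that of all loci. The Csf1r ligand Il34 had 0.54, 1.17 and 0.83 rescaled FPKM in fetal, 17.2, 11.1 and 17.1 in TAC and 14.0, 9.17 and 10.1 in sham (log2 change of fetal against sham -2.70, adjusted p = 7.60e-05). The other ligand, Csf1, named after its values were seen, changed by -1.60 (adjusted p = 3.02e-04). Src and Cbl, a kinase and a ubiquitin ligase used by many receptors, were higher in fetal by 1.20 (adjusted p = 0.00617) and 1.17 (adjusted p = 0.0215), as was Kit, a related receptor of stem and mast cells, by 0.91 (adjusted p = 0.0039).

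Of 29 chemokines and receptors tested, 21 were lower in fetal against sham and 1 was higher, at a median of -2.09. The shares over all loci tested were 22.9% lower and 22.2% higher. Cxcl11, a ligand of Cxcr3, a chemokine receptor of T cells, changed by -4.28 and Ccl21b, which guides lymphocytes to lymph vessels, by -4.17 (adjusted p = 1.01e-04 and 1.26e-04 in limma). Ccl20 was the gene that was higher, by 1.38 (adjusted p = 0.00295), at levels between 1.69 and 2.15 in fetal and between 0 and 0.40 in sham. The Ccl5 receptor Ccr1, named after its values were seen, fell by 1.23 on the log2 scale (adjusted p = 0.0284 in limma). Of the lysozyme and phagocyte oxidase genes 6 of 11 fell, with Cybb, the membrane subunit of the oxidase, at -2.41 (adjusted p = 1.53e-04) and Ncf4, a cytosolic subunit, at -1.59 (adjusted p = 0.00154). Of 8 tested transcription factors of myeloid and lymphoid cells 5 fell, among them Cebpb at -2.36 (adjusted p = 0.00152) and Nr1h3 at -1.74 (adjusted p = 0.00197). Counted on annotated transcripts only, Folr2, Nkg7, Serping1, Il34, Cbl, Cybb, Ncf4 and Nr1h3 were no longer called in fetal against sham and Kit had a log2 change of -0.45. Cbl was also not called without fetal replicate 1, fetal replicate 3 or sham replicate 3. For TAC against sham, limma called 0 of the 178 list genes tested. Of these genes, 4 had an unadjusted p below 0.05 (Ccbp2, Ccl24, Klf1 and RT1-Da, named after their values were seen). So had 621 of all 14298 loci tested.

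**Figure D5:**
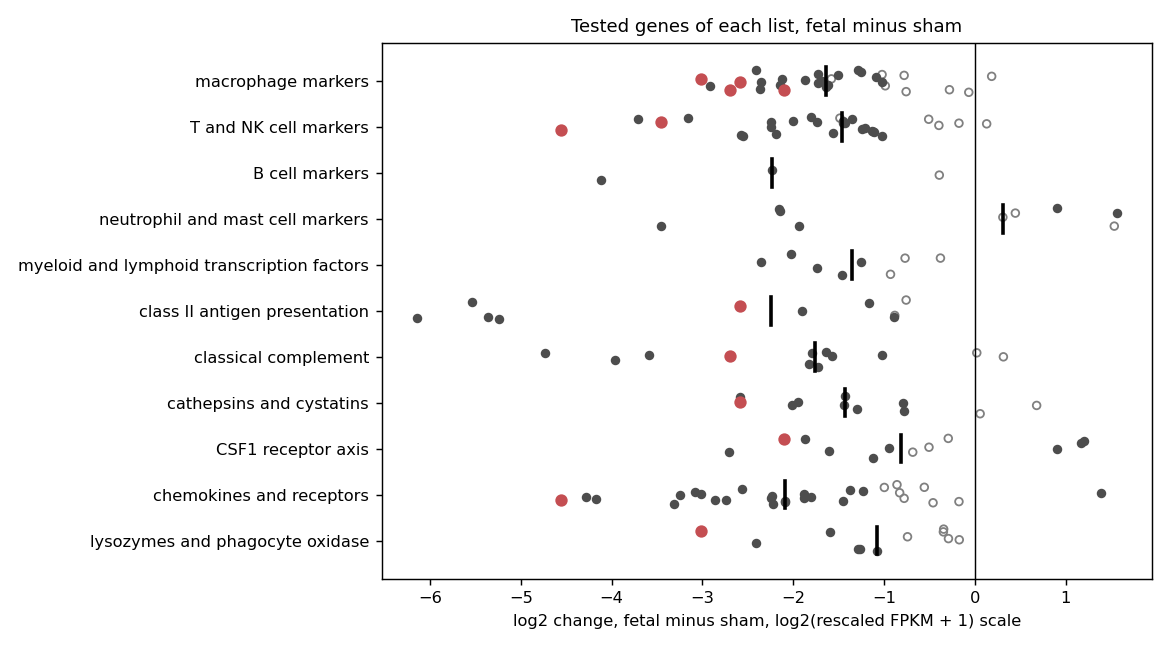
Log2 change of fetal minus sham (horizontal axis, log2(rescaled FPKM + 1) scale) for each tested gene of 11 lists. Filled points have an adjusted p below 0.05, open points do not, red points are the 6 markers wherever a list holds them, and the bar is the median of the list. The macrophage list sits around -1.64 and 4 class II genes lie below -5.

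For TAC against sham, the 3 macrophage genes with the lowest unadjusted p were Fcgr3a (log2 change 0.88), Itgam (0.48) and Cd86 (0.64), none of them called. The 3 of the T and NK cell list were Klrb1a (-0.78), Cd3d (-0.69) and Gata3 (0.60), with an adjusted p of 1 in limma for all 6 genes.

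Markers of other cell types were counted in the same way, and their part in the result was not tested. Over all loci tested, 22.9% were lower in fetal against sham and 22.2% higher. The shares of smooth muscle markers in either direction lie near or below these. So do the shares of fibroblast, of erythroid, and of neutrophil and mast cell markers that were higher. In fetal against sham, 6 of 9 tested fibroblast markers were lower and 2 higher, 4 of 6 endothelial markers were lower, and 2 of 7 smooth muscle markers were lower and 1 higher. Of the neutrophil and mast cell list 4 of 9 were lower and 2 higher, and of the B cell list 2 of 3 were lower. The tested B cell genes, Cd79b, Blnk and Faim3, passed the filter only through adult libraries, which favoured a fall in fetal. The endothelial genes Icam2 and Tek were not called without fetal replicate 2, fetal replicate 3, sham replicate 1 or sham replicate 2. In the B cell list, Faim3, an IgM receptor, had 0, 0.05 and 0.14 rescaled FPKM in fetal and 24.5, 15.8 and 13.5 in sham (log2 change -4.12, adjusted p = 1.49e-05 in limma). Of the neutrophil and mast cell list, the mast cell tryptase Tpsb2 changed by -3.46 (adjusted p = 7.47e-06 in limma). In the other direction, Ngp changed by 1.57 (adjusted p = 0.0159) and Kit by 0.91 (adjusted p = 0.0039). The median log2 change of that list was 0.31. Erythroid markers summed to between 19314 and 30786 in fetal, 5612 and 11412 in TAC and 5680 and 14185 in sham libraries, with 2 of 7 higher in fetal. Of the cardiomyocyte list, Actc1 had 15899.7 to 153309 rescaled FPKM in fetal, 23728.9 to 30739.6 in TAC and 23745 to 27345 in sham libraries. Mb, the adult oxygen store of muscle, had 736 to 1674 in fetal and 21029 to 28079 in sham libraries. These levels are no test of the tissue labels.

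The genes most like each marker over the 9 libraries, among tested loci with a symbol, followed the same fetal to adult gap. For Lyz2 the highest correlation was with Cd4 (r = 0.99), and Faim3 was the third. For Cd4 it was with Sod3 (r = 0.998), with 3.91 in fetal, 157 in TAC and 134 in sham on average, and for Csf1r with Rarres2 (r = 0.999), with 9.13, 73.9 and 72.9. For C1qa it was Fam131c (r = 0.995), for Ctss Cadm3 (r = 0.997) and for Ccl5 Nt5m (r = 0.993). With group means removed, Rarres2 was again among the 3 highest for Csf1r (r = 0.98). These are correlations over 9 libraries in 3 groups and carry no test.

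In a principal component analysis of all tested loci, the leading component (56.2% of the variance) set fetal against adult libraries and the next (17.2%) set the replicates numbered 1 against the rest. The confidence bounds of the files implied, in units of 1e6, 17.5 to 25.7 fragments in fetal, 6.37 to 11.7 in TAC and 11.9 to 21.6 in sham libraries, so the TAC libraries were the shallowest. These are estimates, since the files give no counts, and no counting interval was drawn from them.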

How the data were processed

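RNA sequencing of 3 fetal, 3 TAC and 3 sham libraries was used as deposited. The submitters' processing notes name TopHat 1.3.1, Cufflinks 1.0.3, Cuffdiff without a version, and the build rn4. The deposited FPKM values are given per gene and isoform with confidence bounds, 1 assembly per library. Each library's values carry a further constant (the medians above 0 run from 2733810 to 45986300), so deposited values were not compared between libraries directly.

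Loci were joined through 39492 annotated transcripts. A locus sums its annotated transcripts and those assembled with them: the file rows carry the symbol in all 9 libraries for Lyz2, 7 for C1qa and Ccl5, 3 for Csf1r and 1 for Ctss and Cd4. Symbols come from the files, so Ptprc, Cd74, Spi1 and other listed genes without one are not analysed here. Values were rescaled by the median of ratios over 13131 loci above 0 in every library, to a mean library total of 1000000. The tests took loci that reached 1 in 3 or more libraries, as log2(value + 1), with limma 3.58.1 (eBayes with trend, 6 residual degrees of freedom, Benjamini-Hochberg adjustment, threshold 0.05), all 9 libraries in 1 fit. The fit was tested on simulated data. Implied fragment numbers are the square of the FPKM over its SD, where the bounds lie 2 SD away, and are too low where a gene has several transcripts. Ratios used exact permutation tests. Groups and numbers came from the titles and the developmental stage. Same-numbered libraries correlated after removal of group means in every pair of groups (0.467 to 0.509 for number 1, 0.212 to 0.269 for number 2, 0.151 to 0.184 for number 3). Every such value is above 0.1, the limit set for treating the numbers as pairs. The main fit has group means only and does not use the pairs, which enter as the replicate block among the alternatives. Libraries numbered 2 and 3 correlated with each other as well (0.119 to 0.280), so these numbers are not told apart. Sequences are from RefSeq (GRCr8).

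The markers and lists were chosen with earlier results of these data known. All 6 markers are named in each comparison, and from each other list up to 3 called genes per direction with the largest fetal minus sham change, the lowest p-values for TAC, and genes listed at 0. Further genes are marked where named. Some genes that this rule names are not reported here. Alternatives were the pseudocount, filter, scaling, replicate block, a term for number 1, fit, annotated transcripts only and libraries left out.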

Additional observations from a re-analysis of the deposited data

Results flagged for a closer look

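2 results come from assembled features that lie inside a marker's span, belong to no annotated locus and so entered no comparison, each above any such feature inside the same marker in the sham libraries. In TAC replicate 1, a feature of 996 nt inside Csf1r (chromosome 18, 57106298 to 57107293, rn4) had 23.3 rescaled FPKM from 62.5 implied fragments, and no sham library had one inside Csf1r. Also in TAC replicate 1, a feature of 224 nt inside Cd4 (chromosome 4, 160996110 to 160996333) had 61.7 rescaled FPKM from 11 implied fragments, against 37.8 from 31 implied fragments for a feature of 393 nt in sham replicate 3. Inside Ccl5, where no TAC library had such a feature, sham replicate 1 had 395 rescaled FPKM over 90 nt and sham replicate 3 had 24.6 over 461 nt. FPKM of such short features is not comparable with that of a whole gene. Each was seen in 1 TAC library of 3, with no test.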

How the results depend on the processing

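The fetal calls of the 6 markers held, 6 of 6, under the pseudocounts of 0.1 and 5, no filter or a filter of 5, equal library totals, fits without trend, with weighted libraries or with only the 2 groups compared, within replicates 2 and 3, and with any library left out (6 to 6 in both fetal comparisons and 0 to 0 for TAC minus sham). The replicate block gave 6 markers in each fetal comparison and 0 in TAC minus sham, so it changed no call of a marker. It called 6703, 6752 and 2 loci for fetal minus sham, fetal minus TAC and TAC minus sham. A term for number 1 called 7011, 7021 and 3 loci in the same order, and 6, 6 and 0 markers. Leaving out a library gave 4996 to 6631 loci for fetal minus sham, 4982 to 6365 for fetal minus TAC and 2 to 5 for TAC minus sham, with 5 when fetal replicate 1 was dropped and 4 when sham replicate 2, or replicate 1 or 2 of TAC, was dropped. Replicates 2 and 3 alone gave 11 loci for TAC minus sham.

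Annotated transcripts only gave 2021, 37 and 2104 loci for fetal minus sham, TAC minus sham and fetal minus TAC, and 4 markers in each fetal comparison. Signs changed there for Ctss (0.45) and Cd4 (1.09) in fetal minus TAC, for Csf1r (-0.079) and Cd4 (-1.54) in TAC minus sham, and for Kit (-0.45), Dcn (1.33), Vwf (1.497) and Myom2 (1.72) in fetal minus sham. This setting drops the transcripts that held most of the adult Cd4 and Ctss values.

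The deposited values without rescaling, which carry a different constant in each library, gave 12219, 4 and 13147 loci, and 2, 0 and 3 markers, for fetal minus sham, TAC minus sham and fetal minus TAC. The median log2 change of all loci was then 2.42, -1.08 and 3.47. Signs changed in fetal minus sham for Csf1r (0.39), Cebpb (0.13), Nr1h3 (0.51), Cst3 (0.085), Tyrobp (0.64), Vwf (0.64), Icam2 (2.05), Tek (2.09), Kcnj8 (0.83) and Des (1.03), in TAC minus sham for C1qa (-1.26), Lyz2 (-1.39), Csf1r (-1.19), Cd4 (-1.20) and Ccl5 (-0.87), and in fetal minus TAC for C1qa (1.13), Lyz2 (1.005), Csf1r (1.58) and Ctss (1.34).

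In TAC minus sham, where every marker lay near 0, signs also changed with weighted libraries for Lyz2 (-0.023) and Cd4 (-0.0058). With a library left out they ran from -0.17 to 0.26 for Lyz2, -0.072 to 0.28 for Csf1r, -0.23 to 0.021 for Ctss and -0.12 to 0.25 for Cd4. For Ccl5 they ran from 0.034 without sham replicate 1 to 0.80 without sham replicate 2. Ccl5 rested on 0 to 5 implied fragments in fetal libraries, so its fetal level is imprecise.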
